A study of Mus musculus with 36 samples.

Results

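UPPL1541 and MB49 are mouse bladder cancer lines, and the tumours grown from them in mice were set against each other gene by gene: 4 UPPL1541 line-derived tumours against 4 MB49 line-derived tumours, 8 of the 36 libraries of the series, chosen by the table columns that carry those names. The 4 UPPL1541 tumours bear the genotype label UPPL, which, among other alleles, joins Upk3a-CreERT2, a tamoxifen-dependent Cre recombinase under the promoter of the uroplakin gene Upk3a, with p53f/f, the floxed alleles of the tumour suppressor gene Trp53, and Rosa26LSL-Luc, a luciferase reporter that Cre switches on. The 4 MB49 tumours bear the genotype label Ctrl. MB49 is a widely used transplantable line from carcinogen-exposed bladder epithelium of a male mouse. All 8 tumours are labelled as untreated bladder tumours. The strain, sex and age of the host mice and the site of growth are not given in the sources used here, nor is it said how many cells or clones founded each line. Each group is 1 line, so the 4 tumours of a group are repeats of that line in hosts and not of a genotype. The labels do not say whether the 4 came from separate mice or implantations. The p-values and SEs measure the spread between these libraries together with that of 2 tumours of another line, BBN963, held in the same fit. The series also holds 1 library of UPPL1541 and 1 of MB49 grown in culture, given here beside the tumours as single values. Both cultures bear the genotype label Ctrl, that of UPPL1541 included, although the tumours of that line bear the label UPPL. The UPPL1541 culture is the library whose title carries that line's name.

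The urothelium is a stratified epithelium. Its basal cells carry the keratin pair Krt5 and Krt14 and the transcription factor p63, its umbrella cells carry uroplakins and Krt20, and under squamous differentiation the upper layers switch to Krt1, Krt10 and Krt13 and build a cornified envelope from cross-linked proteins such as involucrin and loricrin. Krt8 and Krt18 are keratins of simple epithelia, and cells that lose this programme can raise vimentin, the intermediate filament of mesenchymal cells. On the immune side, interferon-gamma from T cells and NK cells acts through its receptor and the factor IRF1 and raises the genes for antigen presentation on MHC class I and class II, guanylate-binding proteins and the chemokines that draw further T cells.

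The values are normalized RSEM gene estimates as the authors deposited them, called deposited units here, and the 75th percentile of those above 0 lies close to 1000 in each library. They are not divided by gene length, so levels are compared between tumours and not between genes. Whole reads could be recovered from the steps between low values and came to between 11546431 and 12755826 per tumour. Of 21705 genes in the table, 13603 were tested, those at or above 10 units in at least 4 of the 8 tumours. A gene was called when the adjusted p of limma (a moderated linear model on log2(value + 1), Benjamini-Hochberg over all 13603 genes) was under 0.05, and every fold change is UPPL1541 minus MB49 on that log2 scale, which understates the change of low genes. By this rule 6989 genes, 51.4% of those tested, were called, 6621 of them also by edgeR in the same direction: 3769 (27.7%) were higher and 3220 (23.7%) lower in UPPL1541 tumours. The median over all tested genes was 0.03. Counts over gene lists are read against these shares. All 4 UPPL1541 tumours lay above all 4 MB49 tumours in 3645 genes (26.8% of those tested) and below them in 3125 (23.0%). Libraries of one line resembled each other (Pearson correlation of log2 values 0.914 to 0.955 in UPPL1541 and 0.924 to 0.968 in MB49) more than those of the other (0.546 to 0.604). The lowest correlations in UPPL1541 were those of tumour 2 with tumours 3 and 4, and in MB49 those of tumour 1 with each other tumour. Values are listed in the order of tumours 1 to 4, and the labels do not say that these numbers pair the tumours. In bulk tumour RNA, fewer cells of a type and less RNA per cell cannot be told apart.

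Trp53, floxed in the UPPL genotype, was set against the labels first. It stood at 139, 75.6, 68.3 and 90.5 deposited units in the UPPL1541 tumours, against 1256, 1184, 1456 and 1516 units in the MB49 tumours, and at 50.4 units in the UPPL1541 culture and 1937 in the MB49 culture. The value of the UPPL1541 culture, labelled Ctrl, was below that of every tumour of its line. Every UPPL1541 tumour lay far below every MB49 tumour (log2 fold change -3.89, SE 0.25, adjusted p = 3.4e-07). A value summed over exons need not reach 0 when some exons are deleted, and deletion was not tested in tumours or culture. Upk3a, the gene whose promoter drives Cre in the UPPL mice, was low in the UPPL1541 tumours at 15.5, 56.1, 39.7 and 29.8 units and was listed at 0 in all 4 MB49 tumours. A gene listed at 0 in a whole group is compared with a floor, the larger of 3 reads and the most frequent low value of each library, averaged over the group (5.66 units in MB49 and 5.21 in UPPL1541), and Upk3a was at least 6.23-fold higher in UPPL1541 tumours.

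The widest differences of the whole comparison were those of stratified squamous epithelium. The 12 largest rises were Krt1, Krt13, Dsp, Krtdap, Krt5, Calml3, Krt6b, Calm4, Lgals7, Krt10, Dsc3 and Spink5: keratins, desmosome genes, calmodulin-like and galectin genes of the epidermis, and the gene of an inhibitor of skin proteases. Summed over 52 keratin genes, keratins made up 4.29%, 6.37%, 4.24% and 5.49% of all deposited units in the UPPL1541 tumours, against 0.156%, 0.187%, 0.157% and 0.122% in the MB49 tumours. Altogether 199 genes were listed at 0 in all 4 MB49 tumours while averaging at least 100 units in UPPL1541 tumours, and 20 genes showed the reverse.

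At the head of this programme stand its transcription and splicing regulators, and 19 of 19 tested were higher in UPPL1541 tumours, with a median difference of 8.41 (6.50 with genes at 0 set to their floor). Trp63, which encodes p63, had 12498, 9832, 9549 and 9629 units in UPPL1541 tumours, against 0, 0, 4.26 and 26.8 units in MB49 tumours (log2 fold change 11.53, SE 0.86, adjusted p = 1.1e-06). Ehf, an ETS factor of epithelia, had 12599.8, 11288, 12953 and 12267 units in UPPL1541 tumours, against 0, 20.2, 4.26 and 3.50 units in MB49 tumours. No MB49 tumour came near a UPPL1541 tumour in either gene, UPPL1541 tumour 1 was the highest of its group in Trp63, and MB49 tumour 4 carried the highest of the small Trp63 values and MB49 tumour 2 of the small Ehf values. Grhl3, a grainyhead factor needed for the skin barrier, Esrp1, which directs epithelial splicing, Tfap2c and Sox2 were listed at 0 in all 4 MB49 tumours. Esrp1 had 3067, 2777, 2646 and 3128 units in UPPL1541 tumours, at least 513-fold more than in MB49 tumours, and in culture 3369.8 units in UPPL1541 and 205 in MB49. The smallest rise in the list was that of Klf4 (0.33, SE 0.12), which stood at 2984, 3171, 2631 and 3422 units in UPPL1541 tumours and 2329.9, 2244, 2743 and 2362 units in MB49 tumours. The Klf4 groups overlapped, and Klf4 did not pass without any 1 of 6 of the 8 tumours, with adjusted p between 0.068 and 0.12, nor by edgeR (adjusted p = 0.083).

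Basal and suprabasal keratins moved in the same direction. All 7 tested basal and stress keratins and all 7 tested suprabasal keratins were higher in UPPL1541 tumours, with medians of 12.43 and 12.76. Krt5 had 129828, 135422, 117621 and 125427 units in UPPL1541 tumours, against 5.20, 1.12, 7.46 and 11.7 units in MB49 tumours. Krt1, the first keratin of the suprabasal epidermis, had 117119, 198344, 98389.6 and 150375 units in UPPL1541 tumours and was listed at 0 in MB49 tumours, a difference of at least 24932-fold. Its partner Krt10 had 110591, 219561, 127191 and 189795 units in UPPL1541 tumours, against 10.4, 13.5, 19.2 and 15.2 units in MB49 tumours. No MB49 tumour came near any UPPL1541 tumour in these keratins, and UPPL1541 tumour 2 was the highest of its group in each of them. The UPPL1541 culture carried the basal keratin Krt5 (67387 units) but hardly any Krt1 (14.9 units) or Krt10 (59.8 units), while Krt13, a keratin of moist squamous epithelium, was at 3154 units there and at 29852, 57091, 36056 and 43967 units in the tumours of that line. Krt5, Krt1 and Krt13 stood at 0.964, 0 and 0 units in the MB49 culture.

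**Figure D1:**
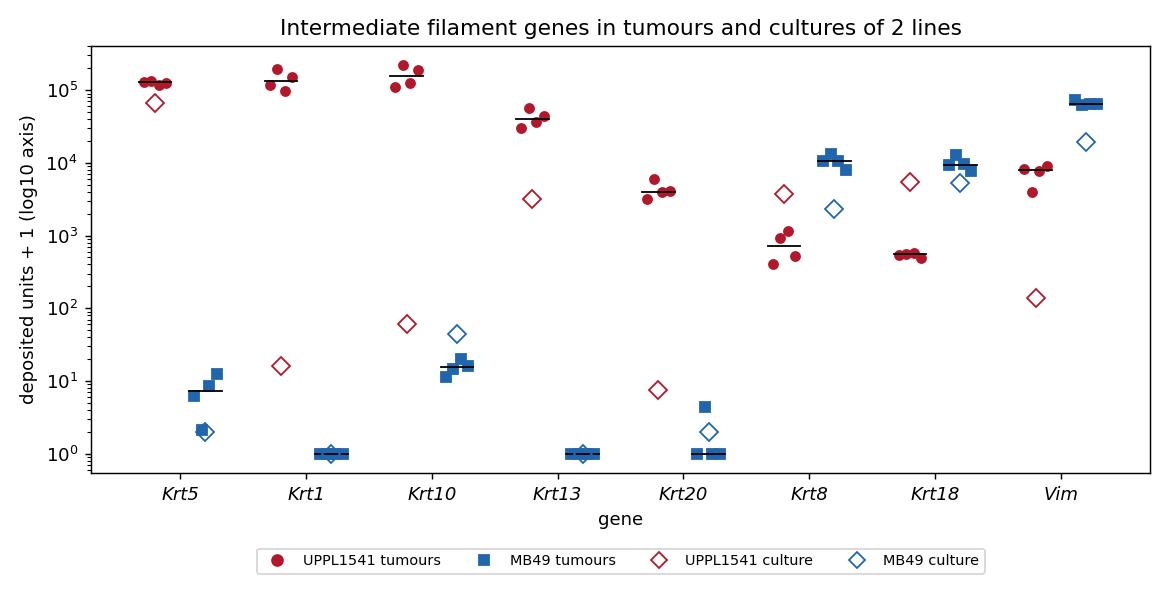
Deposited units plus 1 on a log10 axis for 8 intermediate filament genes, with UPPL1541 tumours as filled circles to the left of MB49 tumours as filled squares, and the culture of each line as an open diamond (n = 4 tumours a group, 1 culture a line; the horizontal bar is the group's median). Krt5, Krt1, Krt10, Krt13 and Krt20 lie high in UPPL1541 and at or near 0 in MB49, while Krt8, Krt18 and Vim run the other way, and the UPPL1541 culture is low in Krt1, Krt10 and Krt20.

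Simple keratins did not follow one direction. Krt7 and Krt19, and Krt20 of umbrella cells, were higher in UPPL1541 tumours, whereas Krt8 and Krt18, the keratin pair of simple epithelia, were lower. Krt7 and Krt19 differed by 9.94 and 6.47. Krt8 had 411, 913, 1166 and 522 units in UPPL1541 tumours, against 10543, 13395, 10777 and 8023 units in MB49 tumours (log2 fold change -3.92, SE 0.30, adjusted p = 1.2e-06). Krt18 had 541, 562, 571 and 486 units in UPPL1541 tumours, against 9246, 12684, 9699 and 7684 units in MB49 tumours (log2 fold change -4.16, SE 0.19, adjusted p = 1.6e-08). For both genes every UPPL1541 tumour lay below every MB49 tumour. In culture the lines were closer, with Krt18 at 5444 units in UPPL1541 and 5265 in MB49. Krt20 stood at 3139.8, 5966, 3934 and 4069 units in UPPL1541 tumours and 0, 3.37, 0 and 0 units in MB49 tumours, but at 6.54 units in the UPPL1541 culture.

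Desmosomes, the junctions to which keratins attach, followed the stratified keratins: 11 of 12 tested desmosome genes were higher in UPPL1541 tumours (median 10.46). Dsp, the plakin that ties the junction to keratin, had 53063, 35151, 25617 and 34429 units in UPPL1541 tumours, against 0, 0, 0 and 1.17 units in MB49 tumours. Dsg3, a desmosomal cadherin of basal layers, had 11272, 6353, 6614 and 6640.1 units in UPPL1541 tumours, against 2.08, 0, 1.07 and 2.33 units in MB49 tumours. Both were near 0 in every MB49 tumour, and UPPL1541 tumour 1 was the highest of its group. Dsg1a and Dsc1, the cadherins of the upper epidermal layers, were high in UPPL1541 tumours (Dsc1 1329, 1245, 695 and 1142 units) and near 0 in the culture of that line (0 units of Dsg1a and 0.934 of Dsc1). The exception was Pkp2, a plakophilin of simple epithelia and heart, with 171, 35.2, 115 and 45.3 units in UPPL1541 tumours and 862, 706, 555 and 729.6 units in MB49 tumours (log2 fold change -3.21, SE 0.74, adjusted p = 0.0039). In culture Pkp2 had the opposite order, at 741 units in UPPL1541 and 255 in MB49.

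Tight junction genes showed 12 of 16 tested higher and 1 lower in UPPL1541 tumours (2 lower without UPPL1541 tumour 1 or MB49 tumour 1; median 3.66). Cldn4 had 5618, 6237, 4186 and 4433 units in UPPL1541 tumours and was listed at 0 in all MB49 tumours, at least 905-fold apart. Cldn1, the claudin of the epidermal barrier, had 5485, 5184, 4389 and 3575 units in UPPL1541 tumours, against 0, 22.4, 14.9 and 44.3 units in MB49 tumours. Cldn3 was the one lower, with 50.2, 86.0, 173 and 23.8 units in UPPL1541 tumours and 902, 587, 812 and 841 units in MB49 tumours (log2 fold change -3.55, SE 0.55, adjusted p = 2.7e-04). None of the 3 claudins overlapped between the tumours of the 2 lines. Cldn3 had the opposite order in culture, at 1839 units in UPPL1541 and 523 in MB49. Of 9 genes that hold basal cells to the basement membrane, 4 were higher, 2 lower and 3 did not pass. Col17a1, Lamb3 and Itga6 were higher (7.84, 4.56 and 1.78), Plec and Itgb4, the partner of Itga6, were lower (-1.31, SE 0.26 and -0.70, SE 0.24), and Lama3, a laminin chain gene like Lamb3, gave 0.76, SE 0.49 and did not pass. Itgb4 did not pass without any 1 of 6 of the 8 tumours, all but UPPL1541 tumour 1 and MB49 tumour 1, with adjusted p between 0.056 and 0.087, and the count of lower genes was then 1. It was 3 without UPPL1541 tumour 1 or MB49 tumour 1. UPPL1541 tumour 1 stood above the others of its group in both laminin genes: Lamb3 had 2602, 1091, 945 and 954 units in UPPL1541 tumours, against 99.9, 29.2, 61.8 and 42.0 units in MB49 tumours, and Lama3 had 4859, 1542, 1712 and 1756 units in UPPL1541 tumours, against 441, 2045, 1689.8 and 1814 units in MB49 tumours. Lamb3 did not overlap between the lines and Lama3 did.

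Cornified envelope genes moved in 1 direction. All 19 tested were higher in UPPL1541 tumours, with a median of 9.47 (7.49 with genes at 0 set to their floor). Ivl, the involucrin gene, had 1062, 1263, 1191 and 1139.6 units and Lor, the loricrin gene, 921, 1681, 636 and 824 units in UPPL1541 tumours, and both were listed at 0 in all 4 MB49 tumours (at least 206-fold and 179-fold). Sprr1a, which encodes a small proline-rich cross-linked protein, was detected in MB49 tumours as well, with 14080.0, 23443, 17148 and 19243 units in UPPL1541 tumours, against 242, 391, 203 and 321 units in MB49 tumours (log2 fold change 6.01, SE 0.21, adjusted p = 2.1e-09). Other members were detected there too, and the smallest difference of the list was that of Ppl, the periplakin gene, named after its values were seen, with 8437, 6958, 5592 and 8377 units in UPPL1541 tumours, against 899, 2685, 2280.4 and 1879 units in MB49 tumours (2.01, SE 0.29). Krtdap, a secreted keratinocyte differentiation protein, had 15086, 40154, 20839.6 and 19405 units in UPPL1541 tumours and was listed at 0 in MB49 tumours. UPPL1541 tumour 2 was the highest of its group in Ivl, Lor, Sprr1a and Krtdap. The UPPL1541 culture held 210.1 units of Ivl, 9.34 of Lor, 83.1 of Krtdap and 6385 of Sprr1a, all below the lowest tumour of that line.

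Many of these genes carry the same short element near their start. In the RefSeq promoter windows (GRCm38.p6, 250 bases before to 50 after each gene's start) only the 250 bases before the start were searched, for every motif. TGANTCA, the AP-1 site bound by Fos and Jun dimers and read on both strands, occurred in 11 of 18 cornified envelope genes with a window (61.1%), against 7.82% of all 27025 genes, 27.8% of kallikrein and clade B serpin genes, 31.6% of interferon-stimulated genes and none of 8 epithelial regulators. The 4 stretches printed show it, each 5′ to 3′ on the gene's strand with the AP-1 site in capitals: Ivl at chr3:92573815-92573881 (minus strand), Lor at chr3:92083154-92083220 (minus), Sprr1a at chr3:92485991-92486057 (minus), where it occurs at both marked places, and Krtdap at chr7:30787794-30787860 (plus). Altogether 13 motifs were searched, and the 2 shown in this text were chosen after the matches were seen. Each motif was searched on its own, so matches of different motifs may overlap, and a match describes these letters and not binding.
Ivl: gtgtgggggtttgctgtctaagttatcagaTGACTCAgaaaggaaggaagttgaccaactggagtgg
Lor: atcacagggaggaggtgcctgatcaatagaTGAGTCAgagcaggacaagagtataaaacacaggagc
Sprr1a: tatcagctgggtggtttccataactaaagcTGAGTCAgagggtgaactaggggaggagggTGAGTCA
Krtdap: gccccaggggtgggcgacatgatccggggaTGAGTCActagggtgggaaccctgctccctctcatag

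Secreted proteases and inhibitors of the differentiating layers went with the envelope. Of 18 kallikrein and clade B serpin genes tested, 16 were higher and 2 lower (median 8.85). Klk7, which cuts corneodesmosomes as skin sheds, had 1713, 2571, 1622 and 1759 units in UPPL1541 tumours, against 0, 1.12, 4.26 and 1.17 units in MB49 tumours, and 4.67 units in the UPPL1541 culture. Klk14 had 1519.7, 1601, 1039 and 1217 units in UPPL1541 tumours, was listed at 0 in MB49 tumours and stood at 0.934 in the UPPL1541 culture. Serpinb3a, one of several near-identical genes between which reads may be split, had 10190.0, 17317, 6317 and 7052 units in UPPL1541 tumours and 0 in both the MB49 tumours and the UPPL1541 culture. These were high in every tumour of the line and near 0 in the 1 culture. Serpinb6a and the granzyme B inhibitor gene Serpinb9 were lower, with Serpinb6a at 1605, 1228, 1169.6 and 1448 units in UPPL1541 tumours and 11508, 10092, 9786 and 8871 units in MB49 tumours (log2 fold change -2.89, SE 0.14, adjusted p = 3.7e-08). Membrane serine protease genes and their inhibitors were higher in UPPL1541 tumours in 10 of 10 cases (median 6.04), among them St14, which encodes matriptase (6.04, SE 0.37), Prss8 and Tmprss11e.

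Luminal urothelial genes were mixed: 10 of 15 tested were higher, 2 lower and 3 did not pass (median 2.08). The uroplakins Upk1b and Upk2 did not reach the level tested, with Upk2 at 3.58, 10.4, 7.45 and 10.7 units in UPPL1541 tumours and 0, 3.37, 0 and 0 units in MB49 tumours. Upk3b was listed at 0 in all 8 tumours, and Upk1a gave 1.61, SE 0.70 and did not pass, although it did without UPPL1541 tumour 1 (adjusted p = 0.027) or MB49 tumour 1 (adjusted p = 0.041). Pparg and Foxa1, regulators of luminal fate, did not pass either (-1.31, SE 1.07 and 0.31, SE 0.25), but Pparg passed as lower in a fit of the 8 tumours alone (adjusted p = 0.017). Gata3 was modestly higher, at 621, 639, 493 and 641 units in UPPL1541 tumours and 301, 296, 357 and 329.8 units in MB49 tumours (log2 fold change 0.89, SE 0.16, adjusted p = 7.2e-04), without overlap. Psca, a surface antigen gene of urothelium and stomach, had 1148, 3297, 1701 and 1946 units in UPPL1541 tumours and was listed at 0 in MB49 tumours. The surface glycoprotein gene Epcam had 4730.0, 4664, 3847 and 3965 units in UPPL1541 tumours, against 0, 0, 2.13 and 0 units in MB49 tumours, whereas Cd44 gave -0.30, SE 0.14 and did not pass, although it did without MB49 tumour 4 (adjusted p = 0.041) and after quantile normalization (adjusted p = 0.02), and Ly6a, which encodes Sca-1, was lower (-0.78, SE 0.21). Ly6a was higher in the UPPL1541 culture (14589 units) than in the MB49 culture (130).

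Mesenchymal genes did not simply mirror the epithelial ones. Of 15 tested, 9 were higher and 6 lower in UPPL1541 tumours. Vim, the vimentin gene, had 8139, 3999, 7817 and 9113 units in UPPL1541 tumours, against 73349, 62805, 63976 and 65174 units in MB49 tumours (log2 fold change -3.25, SE 0.25, adjusted p = 1.3e-06). S100a4, a calcium-binding protein of motile cells, had 654, 743, 719 and 759.8 units in UPPL1541 tumours, against 24416, 27366, 22607 and 23921 units in MB49 tumours (log2 fold change -5.09, SE 0.11, adjusted p = 7.5e-11). Axl, a receptor tyrosine kinase of mesenchymal cells, had 2372, 854, 2765 and 2018 units in UPPL1541 tumours, against 17039.5, 15523, 16559 and 14955 units in MB49 tumours. In all 3 the MB49 tumours were high and even, and no UPPL1541 tumour reached them. The cultures stood apart in the same direction, Vim at 139 units in UPPL1541 and 19076 in MB49, and S100a4 at 121 and 8829.7. Transcription factors of mesenchymal transition split. Twist1 and Snai2 were higher, with Snai2 at 1174, 784, 952 and 811 units in UPPL1541 tumours and 113, 132, 129 and 118 units in MB49 tumours (log2 fold change 2.89, SE 0.18, adjusted p = 2.2e-07). Zeb1, Zeb2 and Twist2 were lower (-1.75, SE 0.37, -0.85, SE 0.28 and -2.71, SE 0.39), each without overlap. In culture Snai2 had the opposite order, at 411 units in UPPL1541 and 1195 in MB49, and Twist1 was at 0 in both. The mesenchymal cadherin gene Cdh11 was higher in UPPL1541 tumours (2.82, SE 0.60) and stood at 3.73 units in the UPPL1541 culture.

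The fibrillar collagen genes Col1a1, Col1a2 and Col3a1 and part of the fibroblast markers were higher in UPPL1541 tumours, while Col4a1, Col18a1 and Nid1 of basement membranes were lower. Of 16 collagen genes tested, 8 were higher, 3 lower and 5 did not pass, among these Col5a2, also fibrillar (1.55, SE 0.62), which passed without UPPL1541 tumour 2 (adjusted p = 0.016) or MB49 tumour 1 (adjusted p = 0.003). Col3a1 had 116579, 37093, 126554 and 162988 units in UPPL1541 tumours, against 41372, 8049, 6036 and 11523 units in MB49 tumours (log2 fold change 2.98, SE 0.59, adjusted p = 0.0014). Col18a1 and Col4a1, collagens of basement membranes, were lower, with Col18a1 at 4599.8, 1683, 2677 and 3069 units in UPPL1541 tumours and 17279.9, 17140.3, 19037 and 18357 units in MB49 tumours (log2 fold change -2.67, SE 0.24, adjusted p = 4.4e-06). The Col3a1 groups overlapped, since UPPL1541 tumour 2 was low and MB49 tumour 1 high in their groups, and the Col18a1 groups did not. Without UPPL1541 tumour 2, 11 collagen genes were higher and 3 lower. Of 16 matricellular and matrix-crosslinking genes tested, 7 were higher, 7 lower and 2 did not pass (median -0.17). Tnc was among the higher ones (2.60, SE 0.57), with overlap between the groups. It stood at 18115 units in the UPPL1541 culture and 9.64 in the MB49 culture. All 7 higher genes were also higher by more than 1 log2 unit in the UPPL1541 culture. Of the 7 lower genes, 4 were also lower there by that much and 2 were higher. Nid1, which encodes the basement membrane linker nidogen, and Vcan, a large proteoglycan, were far lower in UPPL1541 tumours: Nid1 had 982, 216, 2018 and 1130.1 units in UPPL1541 tumours, against 10299.7, 24719, 12986 and 10343 units in MB49 tumours. Vcan had 437, 35.2, 513 and 258 units in UPPL1541 tumours, against 3943, 4959.6, 5849.7 and 5324 units in MB49 tumours (log2 fold change -4.53, SE 0.67, adjusted p = 2.0e-04). Both were high in every MB49 tumour and in the MB49 culture (6411 units of Nid1 and 4238 of Vcan). Fibroblast markers moved with the fibrillar genes: 8 of 14 tested were higher and none lower (median 2.06), among them Lum, with 7159, 3383, 7749 and 12692 units in UPPL1541 tumours and 889.7, 179.6, 180.2 and 431 units in MB49 tumours, and Fbln2 (3.79, SE 0.53). Pdgfra and Thy1 gave -0.20, SE 0.57 and -0.69, SE 0.48 and did not pass. The mean log2 level of the fibroblast list was 10.88, 9.45, 11.16 and 11.03 in UPPL1541 tumours, against 9.86, 8.55, 8.43 and 9.02 in MB49 tumours, and the summed level of its 14 genes was 49630.0 to 184300.0 units in UPPL1541 tumours and 19720.0 to 72120.0 units in MB49 tumours. The part of fibroblast content in the matrix values was not tested. Collagen genes Col1a1, Col1a2 and Col3a1 were all under 25 units in both cultures. The fibroblast list was not confined to tumours, and summed to 19900 units in the UPPL1541 culture and 5573 in the MB49 culture. Of its 8 higher genes, 5 were also higher by more than 1 log2 unit in the UPPL1541 culture and none lower, against 27.2% and 14.0% of all tested genes. Among them Fbln2 stood at 10928 units in the UPPL1541 culture and 0.964 in the MB49 culture.

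**Figure D2:**
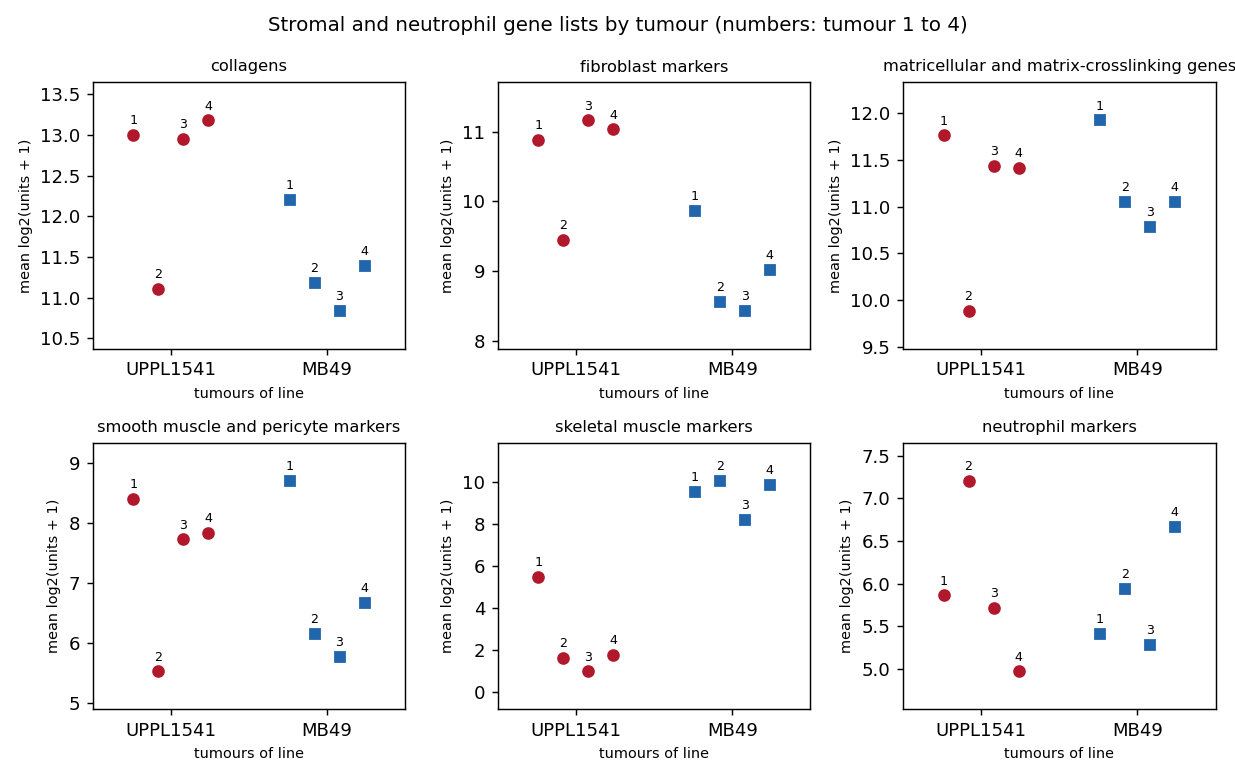
Mean log2(value + 1) over the genes in the table of 6 lists in each tumour, UPPL1541 tumours 1 to 4 as circles to the left of MB49 tumours 1 to 4 as squares, each marked with its tumour number. UPPL1541 tumour 2 is lowest of its group for collagens, fibroblast and smooth muscle markers and highest for neutrophil markers, MB49 tumour 1 is highest of its group for collagens and smooth muscle markers, and skeletal muscle markers are far apart between the lines.

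Muscle RNA differed between the tumours of these 2 lines. Of 14 skeletal muscle markers tested, 13 were lower in UPPL1541 tumours and none higher (median -7.15). Ckm, the muscle creatine kinase gene, had 41.8, 0, 0 and 0 units in UPPL1541 tumours, against 1375, 1838, 673 and 1985 units in MB49 tumours (log2 fold change -9.05, SE 1.84, adjusted p = 0.0018). Myh4, a fast myosin heavy chain, had 22.7, 0, 0 and 0 units in UPPL1541 tumours, against 1968, 2825, 1481 and 3385 units in MB49 tumours. Of the UPPL1541 tumours only number 1 held either gene, and among MB49 tumours number 3 was the lowest in both. Both genes were under 5 units in both cultures. Summed over 14 listed genes, the markers came to 69.5 to 929.9 units in UPPL1541 tumours, against 6534 to 20940.0 units in MB49 tumours. The UPPL1541 culture, with a sum of 119.5 units, lay within the range of its tumours, and the MB49 culture came to 20.2. Such RNA also varied between tumours of 1 line, since Ckm stood at 0 and 940 units in the 2 BBN963 tumours. Smooth muscle and pericyte markers gave 3 higher, 1 lower and 7 not passed; the higher count was 5 without UPPL1541 tumour 2 or MB49 tumour 1 and 1 by edgeR. Of 16 endothelial markers 15 did not pass, with Pecam1 at -0.58, SE 0.33 and Cdh5 at -1.17, SE 0.52. Pecam1 passed without UPPL1541 tumour 3 (adjusted p = 0.041) and Cdh5 without MB49 tumour 2 (adjusted p = 0.045).

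Growth factor receptors were divided. Of 35 receptor tyrosine kinase genes tested, 20 were higher and 7 lower in UPPL1541 tumours (median 1.21). Fgfr2, the receptor of epithelia for FGFs from stroma, had 2400.2, 2675, 1599 and 1891 units in UPPL1541 tumours, against 0, 0, 7.46 and 6.99 units in MB49 tumours (log2 fold change 9.52, SE 0.70, adjusted p = 9.0e-07). Erbb2 had 2418, 2920.5, 1836 and 2595 units in UPPL1541 tumours, against 425, 615, 611 and 664 units in MB49 tumours (log2 fold change 2.08, SE 0.18, adjusted p = 3.1e-06). Its partner Erbb3, the neuregulin receptor, had 1027, 522, 644 and 1004 units in UPPL1541 tumours, against 2271, 3969, 4567 and 4887 units in MB49 tumours (log2 fold change -2.29, SE 0.28, adjusted p = 5.2e-05). Erbb2 and Erbb3 thus lay on opposite sides, each without overlap. Met, the receptor of hepatocyte growth factor, was lower in tumours, with 2033, 1188, 1427 and 1323 units in UPPL1541 and 7532, 9769, 10159.9 and 8326 units in MB49 (log2 fold change -2.60, SE 0.17, adjusted p = 3.3e-07), but higher in the UPPL1541 culture (12949 units) than in the MB49 culture (3888). Ntrk3, the neurotrophin-3 receptor, gave the largest fitted fall among genes averaging at least 100 units in the higher group: it was listed at 0 in the UPPL1541 tumours and had 711, 2948, 1609.8 and 1362 units in the MB49 tumours, at least 318-fold lower in UPPL1541. Among ligands, Areg, which encodes amphiregulin, had 194, 356, 205 and 295 units in UPPL1541 tumours and was listed at 0 in MB49 tumours, whereas Ereg was lower (-1.73, SE 0.33), and Fgfbp1, a carrier that frees FGFs from matrix, had 5093, 7219, 5848 and 7120.0 units in UPPL1541 tumours, against 1.04, 1.12, 0 and 0 units in MB49 tumours.

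Wnt, Notch and retinoid genes were more often higher than lower in UPPL1541 tumours. Of 22 Wnt genes tested, 17 were higher and 2 lower (median 3.38). Wnt4 had 1094, 1767, 1144 and 1375 units in UPPL1541 tumours, against 16.6, 0, 8.53 and 30.3 units in MB49 tumours, and the receptor gene Fzd10 had 386, 353, 282 and 424 units in UPPL1541 tumours, against 0, 0, 2.13 and 0 units in MB49 tumours. Wnt10a was lower, with 297, 188, 233 and 270.3 units in UPPL1541 tumours and 989.6, 1759.8, 1357 and 1228 units in MB49 tumours (log2 fold change -2.42, SE 0.20, adjusted p = 2.5e-06). The 3 genes did not overlap between the lines. Of 15 Notch genes tested, 9 were higher and 2 lower (1 lower when any 1 of 6 of the 8 tumours, all but UPPL1541 tumour 1 and MB49 tumour 2, was left out): Notch3 had 3706, 2489, 2532 and 3740.4 units in UPPL1541 tumours, against 76.0, 38.2, 51.2 and 77.3 units in MB49 tumours (log2 fold change 5.69, SE 0.25, adjusted p = 1.3e-08), and the target gene Hes1 was also higher (3.08, SE 0.25), while Mfng, a glycosyltransferase that tunes Notch receptors, was lower (-4.03, SE 0.45). Retinoid genes gave 9 of 13 tested higher and none lower: Aldh1a3, which makes retinoic acid, had 6350.1, 7051, 6185 and 5082 units in UPPL1541 tumours, against 0, 0, 5.33 and 5.83 units in MB49 tumours (log2 fold change 11.22, SE 0.61, adjusted p = 8.6e-08), and Crabp2, which carries it to the nucleus, rose by 2.89, SE 0.29. Of 23 Hox genes tested, 10 were higher, 2 lower (1 without MB49 tumour 2) and 11 did not pass; Hoxa11 had 447, 763, 476 and 556 units in UPPL1541 tumours and was listed at 0 in MB49 tumours and culture, and all 10 Hox genes higher in the tumours were also higher by more than 1 log2 unit in the UPPL1541 culture.

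Adhesion, matrix turnover and signalling lists beyond these held single genes far apart. Of 19 integrins tested, 4 were higher and 7 lower; without UPPL1541 tumour 2 the higher count was 7, and without MB49 tumour 2 or MB49 tumour 3 the lower count was 4. Itgb6, an epithelial integrin that frees TGF-beta, had 428, 405, 228 and 309.6 units in UPPL1541 tumours, against 97.8, 10.1, 45.8 and 75.8 units in MB49 tumours (log2 fold change 2.91, SE 0.59, adjusted p = 0.0017). Itgb7, known from gut-homing lymphocytes, had 20.3, 20.9, 63.3 and 16.7 units in UPPL1541 tumours, against 1305, 5153, 2638 and 1198 units in MB49 tumours (log2 fold change -6.32, SE 0.51, adjusted p = 1.9e-06), and 3596 units in the MB49 culture. Neither gene overlapped between the lines. Of 24 TGF-beta, BMP and activin genes, 11 were higher and 4 lower: Bmp7 had 839, 652, 827 and 967 units in UPPL1541 tumours, against 0, 6.73, 2.13 and 0 units in MB49 tumours (log2 fold change 8.52, SE 0.61, adjusted p = 7.8e-07), while Tgfb1 and Tgfb3 gave -0.02, SE 0.13 and 0.01, SE 0.38 and did not pass. Of 10 oncofetal and imprinted genes, 5 were higher and 2 lower, and Hmga2, a chromatin protein of embryonic tissue, had 159, 3.91, 49.7 and 35.7 units in UPPL1541 tumours, against 1646, 2402, 2263 and 1723 units in MB49 tumours (log2 fold change -5.83, SE 0.81, adjusted p = 1.3e-04). Among Hedgehog genes, Hhip, which encodes a membrane inhibitor of the ligand, had 0, 1.30, 16.1 and 9.53 units in UPPL1541 tumours, against 629.6, 1479, 1487 and 1004 units in MB49 tumours (log2 fold change -7.91, SE 1.09, adjusted p = 1.2e-04). Among 15 metalloproteases and inhibitors 9 did not pass, and Mmp2, a stromal gelatinase, was higher (2.95, SE 0.62), as was the glucose transporter gene Slc2a1 (1.00, SE 0.19) among 20 hypoxia and glycolysis genes, of which 5 were higher and 6 lower.

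Proliferation genes were lower in UPPL1541 tumours. Of 22 S phase and mitosis genes tested, 20 were lower and none higher, with a median of -1.11. Mki67, the Ki-67 gene, had 3873, 2638, 3140.1 and 2721 units in UPPL1541 tumours, against 6379, 7661, 9138 and 7657 units in MB49 tumours (log2 fold change -1.32, SE 0.15, adjusted p = 2.5e-05). Ccna2, the cyclin of S phase and G2, had 1423, 1301, 1399 and 1325 units in UPPL1541 tumours, against 4528, 4249, 4857 and 4525 units in MB49 tumours (log2 fold change -1.74, SE 0.10, adjusted p = 1.1e-07). In Mki67 and Ccna2 alike no UPPL1541 tumour reached the lowest MB49 tumour. In culture the order was reversed for Mki67 and for many others: Mki67 stood at 15649 units in UPPL1541 and 3035 in MB49, and of the 20 genes lower in the tumours 10 were higher and none lower by more than 1 log2 unit in the UPPL1541 culture.

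Of 19 G1 cyclins, CDKs and inhibitors tested, 4 were higher, 7 lower and 8 did not pass. Cdkn2a, the gene of p16 and p19Arf, had 2011, 2416, 2226 and 2164 units in UPPL1541 tumours, against 0, 0, 6.40 and 0 units in MB49 tumours (log2 fold change 10.38, SE 0.60, adjusted p = 1.4e-07). Its neighbour Cdkn2b had 922, 1099, 781 and 922 units in UPPL1541 tumours, against 25.0, 5.61, 26.7 and 42.0 units in MB49 tumours. Both were near 0 in every MB49 tumour and in the MB49 culture (1.93 and 0 units), against 1417 and 841 units in the UPPL1541 culture. Ccnd1, the cyclin D1 gene, was lower, with 2667, 1739, 2253 and 2397 units in UPPL1541 tumours and 21745, 17572, 23077 and 17910.3 units in MB49 tumours (log2 fold change -3.16, SE 0.16, adjusted p = 3.7e-08), while Ccnd2 was higher (1.05, SE 0.21) and Cdk4 gave 0.16, SE 0.12 and did not pass. E2f1 was lower (-1.88, SE 0.19), as was Rb1 (-1.12, SE 0.24).

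Genes that p53 activates were read beside the low Trp53 of the UPPL1541 tumours. Of 23 tested, 14 were lower and 6 higher in UPPL1541 tumours (median -1.08), and all 14 lower ones were also lower by more than 1 log2 unit in the UPPL1541 culture. Mdm2, the ligase that degrades p53, had 1118, 1019.6, 730.1 and 882 units in UPPL1541 tumours, against 3525, 1627, 3018 and 3611 units in MB49 tumours (log2 fold change -1.60, SE 0.25, adjusted p = 2.6e-04). Ccng1 had 1832, 1755, 1969 and 1552 units in UPPL1541 tumours, against 5631, 3140.3, 6575 and 8853 units in MB49 tumours (log2 fold change -1.68, SE 0.25, adjusted p = 2.4e-04). Polk, a translesion polymerase, had 281, 216, 266 and 237 units in UPPL1541 tumours, against 1058, 797, 1580.0 and 1521 units in MB49 tumours. No UPPL1541 tumour reached the lowest MB49 tumour, which was number 2 in all 3 genes. The other direction held Perp, a desmosome protein as well as a p53 target, with 35601, 59276, 32435 and 35759.5 units in UPPL1541 tumours and 38.5, 8.98, 17.1 and 5.83 units in MB49 tumours, and Phlda3, an AKT inhibitor, with 2385, 3545, 2796 and 2588 units in UPPL1541 tumours and 85.3, 165, 49.0 and 58.3 units in MB49 tumours (log2 fold change 5.11, SE 0.32, adjusted p = 2.4e-07). Cdkn1a, the p21 gene, stood at 2351, 2725, 1705 and 2161 units in UPPL1541 tumours and 2709, 1862, 2579 and 3471 units in MB49 tumours and did not pass (log2 fold change -0.23, SE 0.20, adjusted p = 0.36), although the cultures were at 862 units in UPPL1541 and 7639.6 in MB49.

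**Figure D3:**
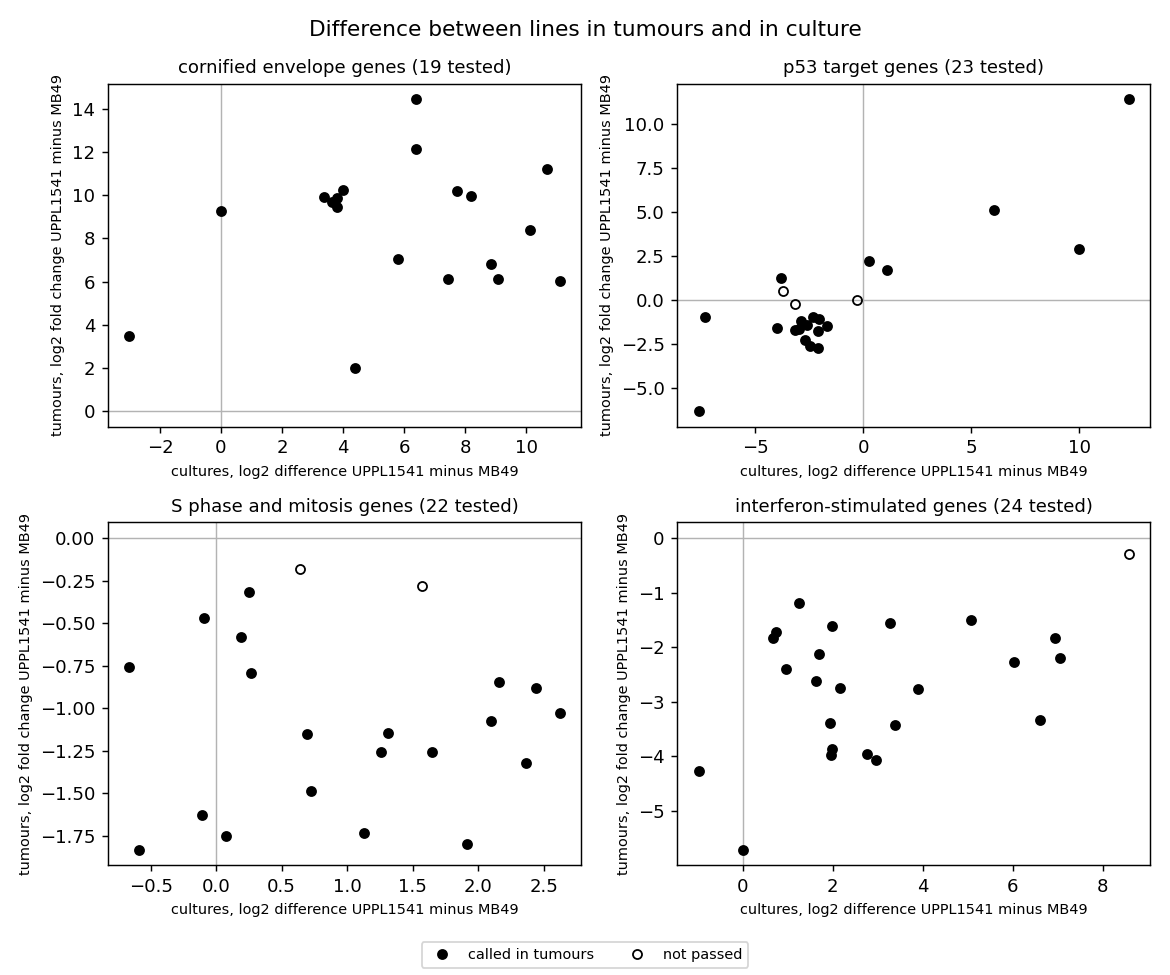
Difference between tumours (log2 fold change, UPPL1541 minus MB49, n = 4 each) on the vertical axis against the difference between the 2 cultures (log2(value + 1), 1 library each) on the horizontal axis, for the tested genes of 4 lists, 1 panel each. Cornified envelope genes lie above 0 on both axes in 17 of 19 cases, p53 target genes lower in the tumours all lie left of 0, and S phase and interferon-stimulated genes lie below 0 for tumours but mostly right of 0 for cultures.

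Lists of metabolic genes were compared next. Of 22 NRF2 and glutathione genes tested, 13 were higher and 6 lower. Gpx2, an epithelial glutathione peroxidase, had 3299.9, 4801, 3672 and 3614 units in UPPL1541 tumours, against 1.04, 0, 0 and 0 units in MB49 tumours. Gsta4 had 7213, 15719.7, 9911 and 8387 units in UPPL1541 tumours, against 946, 691, 625 and 512 units in MB49 tumours (log2 fold change 3.86, SE 0.26, adjusted p = 4.7e-07). Tkt, which encodes transketolase of the pentose phosphate pathway, was lower, with 3386, 3159, 3499 and 2843 units in UPPL1541 tumours and 12613, 8553, 10336 and 11713 units in MB49 tumours (log2 fold change -1.73, SE 0.14, adjusted p = 1.6e-06). The groups did not overlap in these 3, while Nfe2l2 and Keap1, which encode NRF2 and its inhibitor, gave 0.08, SE 0.15 and -0.04, SE 0.13 and did not pass. Of 22 sterol and fatty acid genes, 14 did not pass; Scd1, a fatty acid desaturase, was lower, with 1585, 940.0, 1442 and 1174 units in UPPL1541 tumours and 6678, 6722, 6482 and 7106 units in MB49 tumours (log2 fold change -2.42, SE 0.15, adjusted p = 2.9e-07). Of 23 respiratory chain genes, 16 did not pass. Among immediate early genes the Fos family split, with Fosl1 lower, at 88.1, 36.4, 45.0 and 23.7 units in UPPL1541 tumours and 1309, 789.9, 1510.0 and 1240.0 units in MB49 tumours (log2 fold change -4.74, SE 0.38, adjusted p = 1.7e-06), and Fosl2 higher, at 6195, 4958, 4407 and 4969 units in UPPL1541 tumours and 1401, 1448, 1227 and 1617 units in MB49 tumours (log2 fold change 1.85, SE 0.13, adjusted p = 7.2e-07).

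Antigen presentation and interferon-stimulated genes were lower in UPPL1541 tumours with few exceptions, and UPPL1541 tumour 3 stood apart from its group in them. Of 17 MHC class I presentation genes tested, 15 were lower and none higher. B2m, the invariant class I chain, had 9183, 8695, 59339 and 6504 units in UPPL1541 tumours, against 64466, 128861, 73420.0 and 74442 units in MB49 tumours. H2-K1, a class I heavy chain with near-identical relatives between which reads may be split, had 5295, 8197, 35279 and 4950.3 units in UPPL1541 tumours, against 48532, 74286, 49067 and 41979 units in MB49 tumours. Psmb9, an immunoproteasome subunit, had 124, 88.7, 956 and 77.4 units in UPPL1541 tumours, against 2763, 2935, 2088 and 1836 units in MB49 tumours (log2 fold change -3.79, SE 0.64, adjusted p = 5.2e-04). UPPL1541 tumour 3 was the highest of its group in each and still lay below every MB49 tumour. Without it, the difference of B2m was -3.35 in place of -2.63, and of Psmb9 -4.62, with 15 class I genes lower as before. In culture B2m stood at 8222 units in UPPL1541 and 10054 in MB49, close to each other and close to UPPL1541 tumours 1, 2 and 4. Calr and Pdia3, chaperones of class I folding with wider roles, gave 0.08, SE 0.16 and -0.16, SE 0.14 and did not pass.

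Class II genes showed the same order: 10 of 11 tested were lower. H2-DMa, which loads peptides on class II, had 268, 172, 632 and 289 units in UPPL1541 tumours, against 2540.1, 3191, 2714 and 2192 units in MB49 tumours (log2 fold change -3.12, SE 0.32, adjusted p = 1.3e-05). Ciita, the master regulator of class II, had 118, 26.1, 305 and 94.1 units in UPPL1541 tumours, against 437, 736, 1023 and 622 units in MB49 tumours. In culture H2-DMa was at 4.67 units in UPPL1541 and 0 in MB49, and Ciita at 0 and 0. Not every member was near 0 there: the 11 listed genes summed to 17.7 units in the UPPL1541 culture and 1857 in the MB49 culture. Of the 10 genes lower in the tumours, 3 were also lower by more than 1 log2 unit in the UPPL1541 culture and 2 were higher, against 14.0% and 27.2% of all tested genes.

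Of 24 interferon-stimulated genes tested, 23 were lower and none higher (median -2.51). Rsad2, the antiviral viperin gene, had 44.2, 66.5, 67.0 and 50.01 units in UPPL1541 tumours, against 461, 765, 525 and 578 units in MB49 tumours (log2 fold change -3.33, SE 0.25, adjusted p = 1.2e-06). Bst2, which encodes tetherin, had 253, 316, 1346 and 383 units in UPPL1541 tumours, against 7156, 9104, 6794 and 5836 units in MB49 tumours (log2 fold change -3.98, SE 0.43, adjusted p = 2.0e-05). Rsad2 and Bst2 did not overlap between the lines. The cultures had the opposite order for most of these genes. Of the 23 genes lower in the tumours, 18 were higher and none lower by more than 1 log2 unit in the UPPL1541 culture, against 27.2% and 14.0% of all tested genes: Rsad2 stood at 376 units in UPPL1541 and 2.89 in MB49, and Bst2 at 1569 and 404. Usp18, which damps the interferon receptor, gave -0.29, SE 0.32 and was the 1 member that did not pass. Of the receptors and sensors themselves, 8 of 14 were lower, with Tmem173, the STING gene, at -2.08, SE 0.25 and Ifngr1 at -0.86, SE 0.17, while Ifnar1 and Ifngr2 gave -0.32, SE 0.17 and -0.07, SE 0.15 and did not pass. Ifnar1 passed without UPPL1541 tumour 3 (adjusted p = 0.02).

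**Figure D4:**
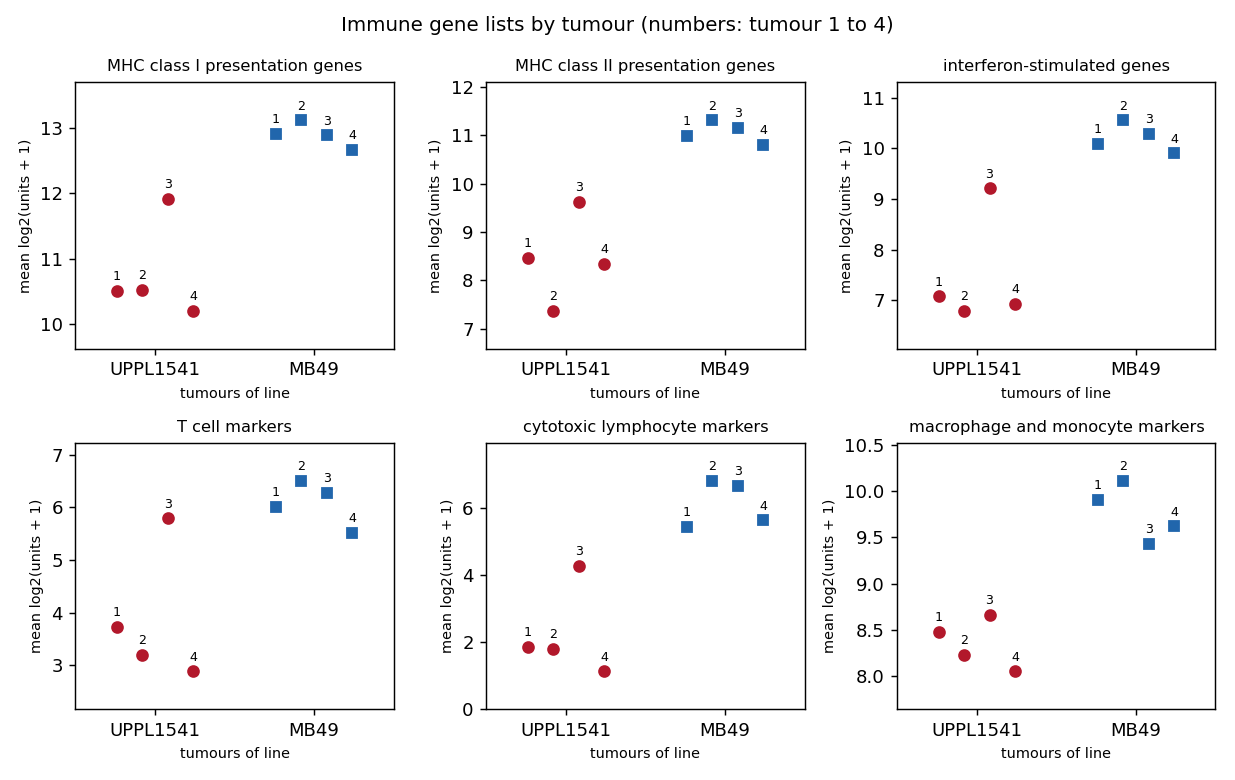
Mean log2(value + 1) over the genes in the table of 6 immune lists in each tumour, UPPL1541 tumours 1 to 4 as circles to the left of MB49 tumours 1 to 4 as squares, each marked with its tumour number. UPPL1541 tumour 3 is the highest of its group in all 6 lists, and it lies below all 4 MB49 tumours in all but the T cell list, where it lies above MB49 tumour 4.

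The interferon-stimulated response element, written as GAAA, any 2 bases and GAAA again and read on both strands, occurred in the promoter windows of 12 of 19 interferon-stimulated genes with a window (63.2%), against 3.46% of all genes, 13.3% of MHC class I genes and 5.56% of cornified envelope genes. The 5 stretches shown are given because these genes differed in the tumours, with the element in capitals on the strand of the gene, where TTTC pairs mark the complementary reading: Isg15 at chr4:156200857-156200926 (minus strand), with 3 overlapping matches, Rsad2 at chr12:26456533-26456602 (minus), Gbp2 at chr3:142620574-142620643 (plus), Igtp at chr11:58199492-58199555 (plus) and B2m at chr2:122147518-122147587 (plus). Isg15, Gbp2 and Igtp were chosen for these matches after their values were seen. Their log2 fold changes were -1.56, -3.95 and -4.06.
Isg15: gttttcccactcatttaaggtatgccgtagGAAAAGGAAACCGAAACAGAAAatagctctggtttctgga
Rsad2: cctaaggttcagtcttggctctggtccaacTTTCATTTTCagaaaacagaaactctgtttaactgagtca
Gbp2: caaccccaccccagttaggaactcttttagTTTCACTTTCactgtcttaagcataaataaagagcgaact
Igtp: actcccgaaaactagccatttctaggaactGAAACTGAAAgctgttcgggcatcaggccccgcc
B2m: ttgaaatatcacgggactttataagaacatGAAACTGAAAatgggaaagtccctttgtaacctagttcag

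Lymphocyte genes were lower in UPPL1541 tumours, from low levels. Of 15 cytotoxic lymphocyte markers tested, 13 were lower and none higher, and of 14 T cell markers 8 were lower and none higher; the T cell count was 5 without UPPL1541 tumour 2, UPPL1541 tumour 4, MB49 tumour 2 or MB49 tumour 3, with 1 gene higher without MB49 tumour 1, and 4 by edgeR's quasi-likelihood test on recovered reads. Gzmb, a granzyme, had 2.39, 6.52, 67.0 and 3.57 units in UPPL1541 tumours, against 339, 987, 475 and 274 units in MB49 tumours. Nkg7, a granule protein of T and NK cells, had 2.39, 11.7, 52.1 and 5.95 units in UPPL1541 tumours, against 157, 397, 230.3 and 145 units in MB49 tumours (log2 fold change -4.25, SE 0.75, adjusted p = 6.9e-04). Cd3d, a chain of the T cell receptor complex, had 1.19, 11.7, 9.93 and 0 units in UPPL1541 tumours, against 82.2, 153, 115 and 46.6 units in MB49 tumours (log2 fold change -4.45, SE 0.82, adjusted p = 9.1e-04). In Gzmb and Nkg7, UPPL1541 tumour 3 again led its group, and MB49 tumour 2 led in all 3 genes. Over 14 T cell genes the summed level was 349 to 1027 units in UPPL1541 tumours, highest in tumour 3, against 721 to 1689 units in MB49 tumours. The same genes came to 240 units in the UPPL1541 culture and 189 in the MB49 culture. Cd4 and Foxp3 gave -0.52, SE 1.06 and -0.64, SE 1.18 and did not pass. Of 18 checkpoint genes tested, 9 were lower and 2 higher: the 2 higher were Vtcn1, the B7-H4 gene, with 202, 253, 211 and 193 units in UPPL1541 tumours and 0 in MB49 tumours, and Nt5e, which encodes the adenosine-making enzyme CD73 (1.77, SE 0.31). Tigit was lower, with 2.39, 11.7, 9.93 and 15.5 units in UPPL1541 tumours and 64.5, 136, 215 and 87.4 units in MB49 tumours (log2 fold change -3.61, SE 0.61, adjusted p = 5.3e-04). Of 8 mast cell and eosinophil markers, 4 were lower and 2 higher, and the mast cell protease gene Mcpt4 was at 10.8, 6.52, 85.7 and 8.34 units in UPPL1541 tumours and 190.4, 549.9, 278 and 244 units in MB49 tumours (log2 fold change -4.16, SE 0.72, adjusted p = 6.1e-04).

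Macrophage genes were lower as a group, 13 of 19 tested, with 2 higher. Mrc1, the mannose receptor gene, had 558, 284, 639 and 550.2 units in UPPL1541 tumours, against 3667, 3701, 2990.4 and 5259 units in MB49 tumours (log2 fold change -2.97, SE 0.37, adjusted p = 6.3e-05). C1qc, a complement subunit made by tissue macrophages, had 1029.9, 910.0, 2391 and 1502 units in UPPL1541 tumours, against 4693, 5348, 3693 and 3648 units in MB49 tumours (log2 fold change -1.66, SE 0.27, adjusted p = 4.4e-04). Neither overlapped, and UPPL1541 tumour 3 was the highest of its group in both. Summed over 20 genes, macrophage markers came to 35810.0 to 53150.0 units in UPPL1541 tumours, against 28600.0 to 40950.0 units in MB49 tumours, and without Arg1 to 13030.0 to 19700.0 units in UPPL1541 tumours, against 28410.0 to 39890.0 units in MB49 tumours. The part of immune cell content in the MHC and interferon values was not tested. The arginine enzymes split: Arg1 had 27599, 39782, 21179.8 and 22783 units in UPPL1541 tumours, against 763, 1052, 193 and 381 units in MB49 tumours (log2 fold change 5.77, SE 0.45, adjusted p = 1.4e-06), and Nos2, the inducible nitric oxide synthase gene, had 171, 179.9, 31.0 and 15.5 units in UPPL1541 tumours, against 2711, 1832, 1810.2 and 3094 units in MB49 tumours (log2 fold change -5.17, SE 0.73, adjusted p = 1.5e-04). Arg1 stood at 2082 units in the UPPL1541 culture and 0 in the MB49 culture.

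Chemokines and cytokines went in both directions. Ccl2 and Ccl12, which draw monocytes, were lower: Ccl2 had 394, 84.7, 251 and 111 units in UPPL1541 tumours, against 2701, 1494, 1505 and 2213 units in MB49 tumours (log2 fold change -3.45, SE 0.43, adjusted p = 6.0e-05). Csf1, the growth factor of macrophages, had 649.9, 957, 544 and 475 units in UPPL1541 tumours, against 3912, 4057, 3657 and 3442 units in MB49 tumours (log2 fold change -2.57, SE 0.19, adjusted p = 1.0e-06), and Il34, the other ligand of its receptor, was lower too (-2.68, SE 0.27). Neutrophil-drawing chemokines split, with Cxcl5 at 2673, 3687, 2692 and 1756 units in UPPL1541 tumours and 189, 3.37, 3.20 and 35.0 units in MB49 tumours (log2 fold change 7.12, SE 1.01, adjusted p = 1.5e-04) and Cxcl3 lower (-2.42, SE 0.44). Cxcl5 was at 53925 units in the UPPL1541 culture and 11.6 in the MB49 culture. Neutrophil markers themselves gave 7 of 10 not passed; S100a8, which keratinocytes as well as neutrophils make, had 4663, 15108, 3957 and 4472 units in UPPL1541 tumours, against 931, 658, 207 and 2415 units in MB49 tumours (log2 fold change 3.00, SE 0.66, adjusted p = 0.0029), and UPPL1541 tumour 2 was the highest. Csf3r, the receptor of the neutrophil growth factor, also peaked in that tumour, at 595, 1213, 399 and 226 units in UPPL1541 tumours and 275, 264, 291 and 501 units in MB49 tumours, and did not pass. Of 16 cytokines and alarmins tested, 8 were higher, 4 lower and 4 did not pass. Il33, an alarmin of epithelia, had 2109.9, 1334, 2676 and 1833 units in UPPL1541 tumours, against 64.5, 467, 199 and 237 units in MB49 tumours (log2 fold change 3.30, SE 0.47, adjusted p = 1.6e-04), and Il1a rose by 2.71, SE 0.56. Il1f5, Il1f6 and Il1f8, IL-36 family genes of the epidermis, were listed at 0 in all MB49 tumours, with Il1f8 at 268, 244, 133 and 217 units in UPPL1541 tumours.

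Genes of the Y chromosome were lower in UPPL1541 tumours, 4 of 4 tested (at least 3 with any 1 tumour left out, and at least 2 in every alternative run). Ddx3y, a Y chromosome gene, had 136, 74.3, 194 and 70.3 units in UPPL1541 tumours, against 217, 1203, 415 and 452 units in MB49 tumours, and 0.934 units in the UPPL1541 culture and 2175 in the MB49 culture. Eif2s3y had 59.7, 49.5, 68.3 and 28.6 units in UPPL1541 tumours, against 140.5, 979.8, 249 and 188 units in MB49 tumours (log2 fold change -2.51, SE 0.61, adjusted p = 0.0053). Ddx3y and Eif2s3y were higher in each UPPL1541 tumour than in the culture of that line (5.60 units of Eif2s3y), and Xist was listed at 0 in all 8 tumours. Uty was not, with 14.3, 0, 34.8 and 25.0 units in UPPL1541 tumours and 11.2 in the culture of that line. The Uty groups overlapped, with 34.3, 252.5, 109.8 and 117.7 units in MB49 tumours.

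Besides muscle genes and Ntrk3, the largest falls were genes of other lineages: Fgf15, Nxf3, Ptgds, Lhx5, Sall3, Slc4a5, Xlr and Gad2. Nxf3, an X-linked RNA export factor of germ cells, was listed at 0 in UPPL1541 tumours and culture and had 965, 1035, 1011 and 1031 units in MB49 tumours and 801 in the MB49 culture. Lhx5, a homeobox gene of the developing brain, was likewise at 0 in UPPL1541 tumours and had 734, 699, 681 and 734 units in MB49 tumours and 544 in culture. The MB49 tumours were close to each other in both genes, which were at least 194-fold and 137-fold lower in UPPL1541 tumours.

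The cultures were also set beside the tumours over the whole table. Of 3769 genes higher in UPPL1541 tumours, 2047 (54.3%) were also higher by more than 1 log2 unit in the UPPL1541 culture, and of 3220 lower genes 961 (29.8%) were also lower. Over all tested genes the shares were 27.2% higher and 14.0% lower. For differences above 2 log2 units the shares were 80.5% of 1706 higher genes and 48.0% of 1033 lower genes. Each culture is 1 library, so these shares carry no replicate check, and the difference between the shares was not tested.

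**Figure D5:**
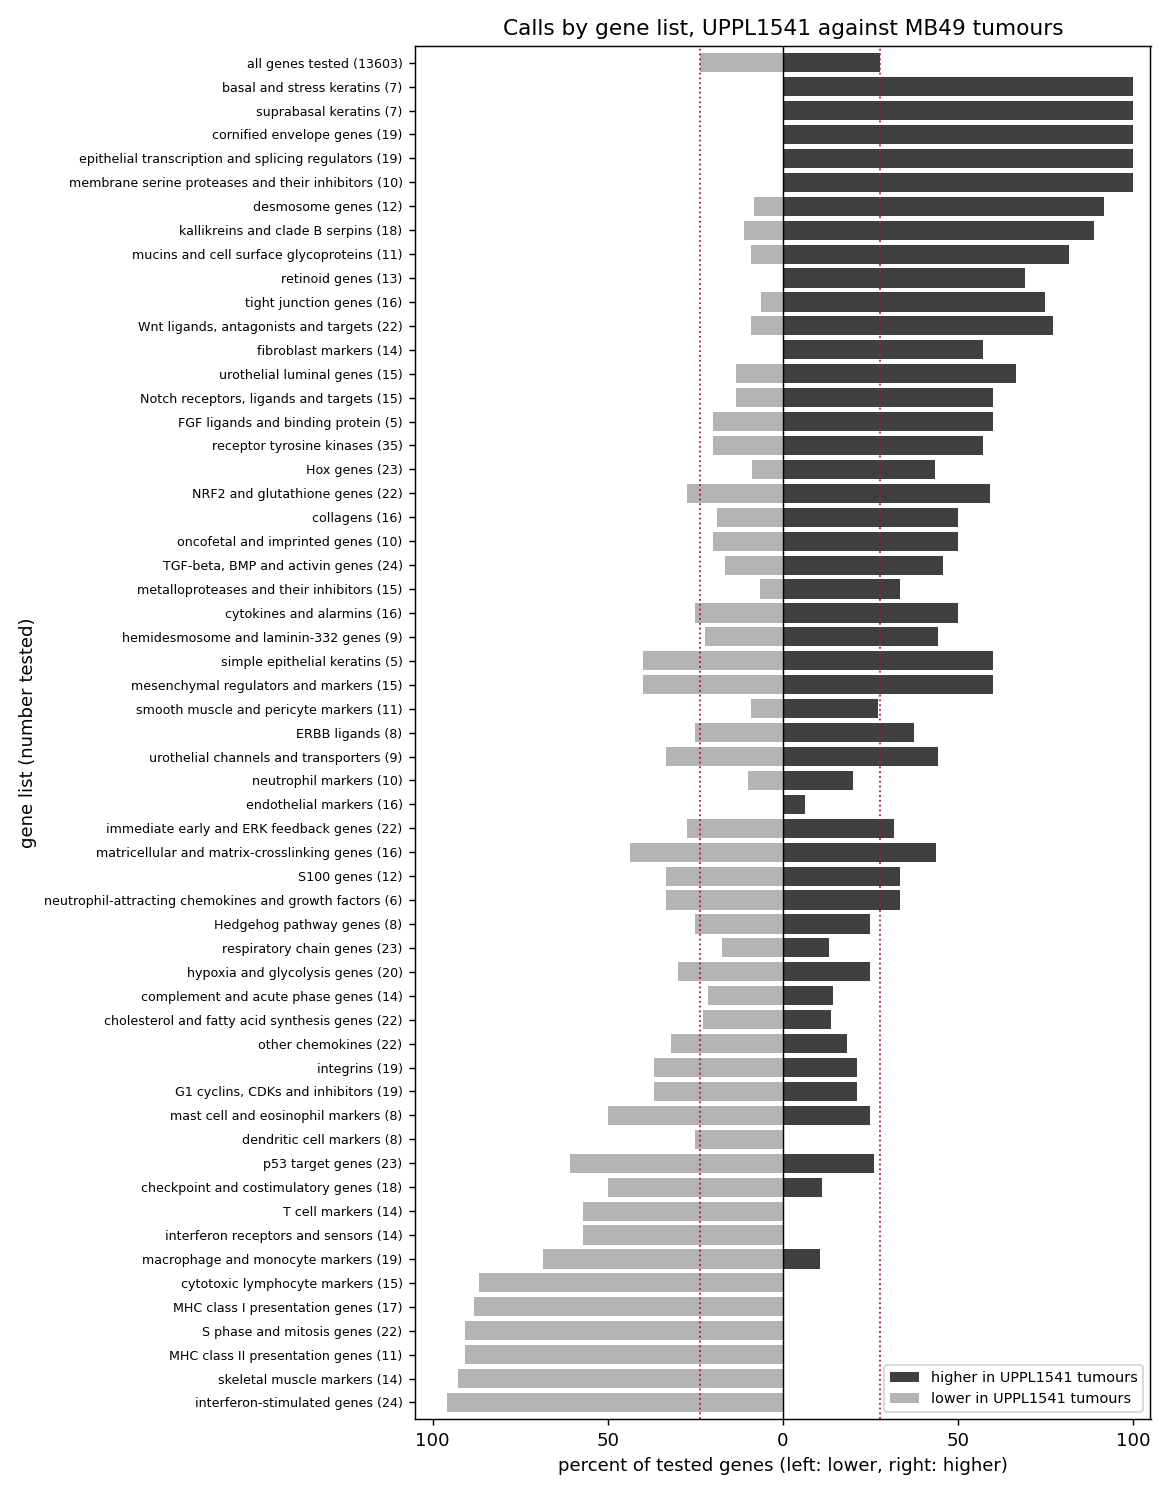
Share of tested genes higher (right of 0, dark) and lower (left of 0, light) in UPPL1541 tumours relative to MB49 tumours for each gene list with at least 5 tested genes, in percent, with the number tested after the list's name (limma, adjusted p under 0.05). The top bar holds all 13603 tested genes at 27.7% higher and 23.7% lower, also drawn as dotted lines. The basal and suprabasal keratin, cornified envelope, epithelial regulator and membrane protease lists reach 100% higher, and cytotoxic, MHC, interferon-stimulated, S phase and skeletal muscle lists hold no higher gene.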

How the data were processed

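Total RNA of the 8 tumours and of 1 culture per line was extracted with a Qiagen RNeasy kit and sequenced as TruSeq stranded mRNA libraries, as the labels' protocols state. The authors deposited normalized RSEM gene values on a signal scale. The submitters' processing notes list Picard 1.64, RSEM, SAMtools and mm9 but give no role for any of them. How the values were normalized is not given in the sources used here; in the values themselves the 75th percentile of those above 0 is close to 1000 in every library, as after division by a size factor per library. Strand and multi-mapping settings are not given in the sources used here, so values of near-identical or overlapping genes are uncertain. An item of the UPPL genotype and some list members are not reported here. The other 24 sample columns of the table were not used.

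The values were tested as log2(value + 1) with limma 3.58.1 (R 4.3.3), a variance trend and Benjamini-Hochberg adjustment. The fit held the 4 UPPL1541, 4 MB49 and 2 BBN963 line-derived tumours, the last only to share the estimate of spread, with group as the single term. Whole reads were recovered at a tolerance of 0.02 reads for 93.0% to 95.2% of the values above 0, and edgeR 4.0.16 (quasi-likelihood test) was run on them as an alternative. Counts of reads limit the low values, and floors cover counting error only. The limma and edgeR steps were tested on simulated data. Gene lists, their members and the rule for named genes were chosen with earlier results of these data known, so no list is independent support. Named are Trp53 and Upk3a, the 12 largest rises and falls among called genes averaging at least 100 units in the higher group (predicted, Riken and antigen receptor segment symbols skipped), and members of lists. The rule for lists was the first 3 genes, up to 4 more of smallest adjusted p and, in lists of 20 or fewer, members whose role a sentence is about. It was not followed in full: the first 3 macrophage genes, for example, are not named, and members were picked with their values known. Zeb1, Zeb2, Twist2, Tnc and Uty are given beside these and are not in the counts of named genes. Promoter windows come from RefSeq (GRCm38.p6), and their coordinates are of that build and not of mm9. Figures were drawn with matplotlib 3.10.9.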

Additional observations from a re-analysis of the deposited data

Results flagged for a closer look

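Each named gene was examined for 1 tumour that stood apart from the other 3 of its line, meaning that its gap to the nearest of them, as a share of the whole range of the 4, was above Dixon's 95% critical value for 4 samples. Of 340 pairs of a gene and a line, 37 were picked out in this way. In 15 of them the other 3 tumours were at 0, so that any value above 0 is picked out by construction. The remaining 22 came from 325 pairs, where chance picks about 1 in 20. Units are those of the deposited table, and no explanation was tested.

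UPPL1541 tumour 1 was the high one for 2 laminin chains of the epithelial basement membrane. Lama3 stood at 4859 units in it, against 1542 to 1756 in the other 3 UPPL1541 tumours, and Lamb3 at 2602, against 945 to 1091. It was also high for Dsg3, a desmosomal cadherin, at 11272 units, against 6353 to 6640, and for Trp63, the basal transcription factor, at 12498 units, against 9549 to 9832. The muscle genes Ckm and Myh4 were at 41.8 and 22.7 units in UPPL1541 tumour 1, Gad2 at 7.17 and Xlr at 1.19, and all 4 of these genes were listed at 0 in the other UPPL1541 tumours. In UPPL1541 tumour 4, Sall3 was at 5.95 units, with 0 in the other 3.

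UPPL1541 tumour 2 was the low one for 4 genes of stroma and vessels: Cdh11 stood at 656 units, against 2059 to 2533, Cdh5 at 143, against 650.2 to 831, Col4a1 at 2012, against 4634 to 5309, and Pdgfra at 244, against 1228 to 1440.3. The same tumour was the high one for Perp at 59276 units, against 32435 to 35760, for S100a8 at 15108, against 3957 to 4663, and for Il1f5 at 100.4, against 64.5 to 69.1. UPPL1541 tumour 3 was high for the class I light chain gene B2m at 59339 units, against 6504 to 9183, for the interferon-induced GTPase Igtp at 1580.6, against 109.5 to 159.6, and for Itgb7 at 63.3, against 16.7 to 20.9. It was low for Gata3 at 493 units, against 621 to 641.

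Among MB49 tumours, tumour 1 was low for Lama3 at 441 units, against 1690 to 2045 in the other 3, and for Serpinb9 at 1099, against 1626 to 1672. MB49 tumour 2 was high for Pdia3 at 28533 units, against 20477 to 21214. MB49 tumour 3 was low for Twist1 at 11.7 units, against 33.8 to 40.4. MB49 tumour 4 was low for Cd44 at 8814 units, against 11336 to 11448, and high for Csf3r at 501, against 263.7 to 291.0, and for Tmem173 at 2117, against 1627 to 1682. For 10 further genes 1 MB49 tumour held at most a few reads and the other 3 were at 0. These were Gpx2 at 1.04 units in MB49 tumour 1, Krt20 and Upk2 at 3.37, Spink5 at 2.24 and Lgals7 at 1.12 in MB49 tumour 2, Cdkn2a at 6.40 and Dsg1a, Epcam and Fzd10 at 2.13 in MB49 tumour 3, and Dsp at 1.17 in MB49 tumour 4.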

How the results depend on the processing

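The counts of genes called (3769 higher and 3220 lower in UPPL1541 tumours) stayed within 1.5 times of these values under every alternative run. They were 3572 and 3187 by edgeR on the recovered reads, 3760 and 3281 with median-of-ratios scaling, 4016 and 3283 with no filter, 3156 and 2859 with a stricter filter, 3603 and 3101 with no variance trend, 3881 and 3433 in a fit of the 8 tumours alone, and 3884 and 3359 with a pseudocount of 10. Quantile normalization gave 3384 and 4132 and moved the median of all tested genes to -0.14, against 0.03 (log2). Leaving out 1 tumour at a time gave 3387 to 3619 higher and 2771 to 3133 lower. An alternative chosen after seeing the data, without MB49 tumour 1 and both BBN963 tumours, in which the commonest low value is at least 9 reads, gave 3750 and 3449. With the replicate number as a block the counts were 3555 and 3068. Same-numbered tumours did not deviate together (correlations -0.052, -0.003, -0.014 and -0.056). The labels do not say that the numbers pair the samples, and a shared batch was not tested. Among named genes the block lost the calls of Klf4 and Itgb4 and gave calls to Cdh5 and Col5a2.

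Of 160 named genes called, 155 were tested in every alternative and 153 of these kept the call; the other 5 were not tested under the stricter filter and kept it elsewhere. No tested named gene reversed. Klf4 lost the call in 13 settings (adjusted p up to 0.12) and Itgb4 in 8 (up to 0.087). Cd44, Cdh5, Col5a2, Ifnar1, Pecam1, Pparg and Upk1a gained a call in 1 or more settings; the cause was not tested. Values under 10 units rest on about 10 reads or fewer and limit what low genes can show. Each group is 1 line, so the differences are between these 2 lines, and only 1 culture library per line was at hand.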
